A study of Mus musculus with 4 samples.

Results

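The genes described here protect cells from oxidants and handle glutathione and metals. They were measured in cultured mouse neural stem cells, taken at embryonic day 14.5 from the ganglionic eminences of the ventral forebrain. The members were a fixed list of 46 genes, and every probe set that the platform annotation gives to only 1 of them was used. Of these, 41 genes had at least 1 such probe set, 76 probe sets in all, among 12393 genes on the array. Prdx1, Prdx5, Prdx6, G6pdx and Ftl1 had no probe set of their own and are not analysed here. The series held 1 array of wild-type cells and 3 arrays labelled Olig1 KO, where Olig1 is a transcription factor gene of the oligodendrocyte lineage. All 4 cultures were on the C57/Bl6 background and grew in serum-free medium with EGF. The KO arrays are called replicates 1, 2 and 3, where the titles of the last pair carry the numbers 37 and 38. The labels describe neither the allele nor the cells in which Olig1 was deleted, and give no source embryo or culture for any KO sample. The spread between the KO arrays may therefore be technical in part. Sex-linked transcripts, given below, also differ between KO replicate 1 and KO replicates 2 and 3.

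NRF2, encoded by Nfe2l2, is a transcription factor that KEAP1 holds at a low level until oxidants or electrophiles modify KEAP1. Free NRF2 binds antioxidant response elements, short DNA motifs, and turns on genes for glutathione synthesis, the thioredoxin system, detoxifying enzymes and the pentose phosphate pathway, which supplies the NADPH they use. Metallothioneins are small cysteine-rich proteins that bind zinc and copper. Mt1 and Mt2 are switched on by metal-responsive elements and the factor MTF1, whereas Mt3 is the metallothionein typical of brain. In the nervous system many of these genes are more active in astrocytes and glial progenitors than in neurons.

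The sequences below are upstream stretches of members with such motifs. The metallothioneins are shown because their signals are given in every array below. RefSeq promoter windows on GRCm38.p6 were matched for 40 of the 46 genes, in 51 windows. The core of the metal-responsive element was searched as TGCACNC or TGCGCNC on both strands, and is in capitals. The 250 bases upstream of Mt2 (chr8:94172368-94172617, plus strand) held 3 cores, those of Mt1 (chr8:94178839-94179088, plus strand) held 1, and those of Mt3 (chr8:94152357-94152606, plus strand) held 0.
Mt1: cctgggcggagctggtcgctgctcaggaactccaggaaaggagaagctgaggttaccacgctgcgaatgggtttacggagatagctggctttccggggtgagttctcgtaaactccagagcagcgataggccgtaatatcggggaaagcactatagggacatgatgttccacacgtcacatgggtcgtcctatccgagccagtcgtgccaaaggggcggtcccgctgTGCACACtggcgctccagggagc
Mt2: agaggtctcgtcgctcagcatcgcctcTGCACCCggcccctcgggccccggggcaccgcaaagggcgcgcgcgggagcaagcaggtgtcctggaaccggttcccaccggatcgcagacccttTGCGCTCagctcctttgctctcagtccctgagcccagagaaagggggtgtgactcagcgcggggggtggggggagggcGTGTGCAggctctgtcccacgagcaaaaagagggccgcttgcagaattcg
Mt3: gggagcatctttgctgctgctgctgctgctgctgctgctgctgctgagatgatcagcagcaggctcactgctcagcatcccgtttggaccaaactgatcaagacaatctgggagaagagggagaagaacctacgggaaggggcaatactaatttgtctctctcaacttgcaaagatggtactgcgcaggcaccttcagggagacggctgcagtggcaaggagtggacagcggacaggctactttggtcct
With the 50 bases after the start included, Mt1 held 3 cores, Mt2 held 4 and Mt3 held 1. At least 1 core lay in 21.4% of all 32851 upstream windows in the table, and 3 or more in 1.26%. By gene, 13 of 40 members held a core in an upstream window (32.5%), against 23.8% of all genes. Besides Mt1 and Mt2 these were Gclm, Gstm1, Gstm5, Gstt1, Pgd, Prdx4, Selenbp1, Srxn1, Txnip, Txnrd2 and G6pdx.

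The core of the antioxidant response element was searched as TGACNNNGC on both strands in the same 250 bases. It was found upstream of 9 of 40 member genes (22.5%), against 11.5% of all 27025 genes with a window, noncoding genes included. The stretches below are those of measured members with a role in glutathione, thioredoxin or superoxide handling, with the core in capitals, read on the strand of the gene.
Gclm: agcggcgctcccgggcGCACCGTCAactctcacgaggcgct
Txnrd1: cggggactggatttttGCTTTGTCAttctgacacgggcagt
Gstm5: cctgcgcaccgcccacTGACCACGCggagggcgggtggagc
Mgst1: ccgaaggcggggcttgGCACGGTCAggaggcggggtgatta
Sod1: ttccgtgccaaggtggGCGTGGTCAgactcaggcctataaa
They lie at chr3:122245407-122245447 for Gclm, chr10:82859098-82859138 for Txnrd1, chr3:107895796-107895836 for Gstm5, chr6:138140455-138140495 for Mgst1 and chr16:90220690-90220730 for Sod1, all on the plus strand. The other genes with a core were Mt2, Nfe2l2, Prdx1 and G6pdx. A match of letters is a description and does not show that NRF2 or MTF1 binds there.

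Values are MAS5 signals, a linear measure of probe set brightness, and background is the brightest of 27 bacterial controls without a target, which lay between 21.3 and 87.8 in the 4 arrays. Median signals lay between 140.8 and 146.7. Wild type and KO replicate 1 formed one pair of arrays, and KO replicates 2 and 3 another. Xist, the RNA of the inactive X chromosome, was at 9480.5 in wild type and 8472 in KO replicate 1, against 160.9 and 46.5 in KO replicates 2 and 3. The 18S ribosomal RNA probe sets had medians of 4.64 and 7.24, against 946 and 2823, in the same order. Eif2s3y, a gene of the Y chromosome, was at 0.61 and 1.53 against 654 and 1160.5, so sex-linked transcripts differ between the pairs. Spiked-in transcripts were at 0.90, 1.89 and 2.75 times wild type in KO replicates 1, 2 and 3. The 3'/5' ratio of beta-actin was 1.11 in wild type and 1.25, 1.30 and 1.82 in the KO arrays, so that KO replicate 1 lay next to KO replicate 2. The same ratio of Gapdh was 0.76 in wild type and 0.79, 1.03 and 0.84 in KO replicates 1, 2 and 3. By Gapdh KO replicate 1 lay next to wild type. The Olig1 signal itself, 7618 in wild type and 3839.6 to 8548 in the KO arrays, does not check the labels, because the deleted part of the gene is not given in the sources used here. Directions below rest on the labels.

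No antioxidant or metal gene passed the test of KO against wild type after adjustment over all kept genes. Differences are KO minus wild type on the log2(signal + 14.4) scale, tested with limma over 7436 kept genes, 40 of them members. Sod3, the extracellular superoxide dismutase gene, was left out by the filter on dim genes, with a signal of 51.9 in wild type and 35.2, 8.82 and 7.86 in KO replicates 1, 2 and 3. Among all genes 0% passed a Benjamini-Hochberg adjusted p under 0.05 in either direction in limma, and 168 had an unadjusted p under 0.05. Of the members, 0 passed, and each had an adjusted p of 0.99997 in limma. With a single wild-type array only large differences could pass, so a p that misses the threshold does not show that a gene was at the same level.

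All 3 KO arrays were below the wild-type array for 11 of 40 members (27.5%), against 20.6% of all kept genes. All 3 were above it for 4 members (10%), against 23.2% of all kept genes. The 11 were Gpx3, Gsr, Gss, Gsta4, Gstt1, Mgst3, Mt3, Prdx4, Hmox2, Nqo1 and Txn2, and the 4 were Gpx1, Gclc, Gstm1 and Cat. The median difference over the members was -0.056, with single-array medians of -0.13, 0.0042 and -0.14, beside -0.00014 over all kept genes. For 34 of 40 members the KO arrays ranged over more than the mean difference, a count with no share of all kept genes beside it. Without overlap and by at least 0.4 in the mean, 7 members were below wild type and 2 above, against 9.41% and 10% of all kept genes. These counts rested on single arrays. Without KO replicate 1, 14 members were above wild type and 15 below, so they were nearly even, where 35.7% of all kept genes were above and 34.9% below. Without KO replicate 3, 8 members were above, where 34.2% of all kept genes were. Another 14 were below, a count with no share of all kept genes beside it, so no lean is read from it.

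**Figure D1:**
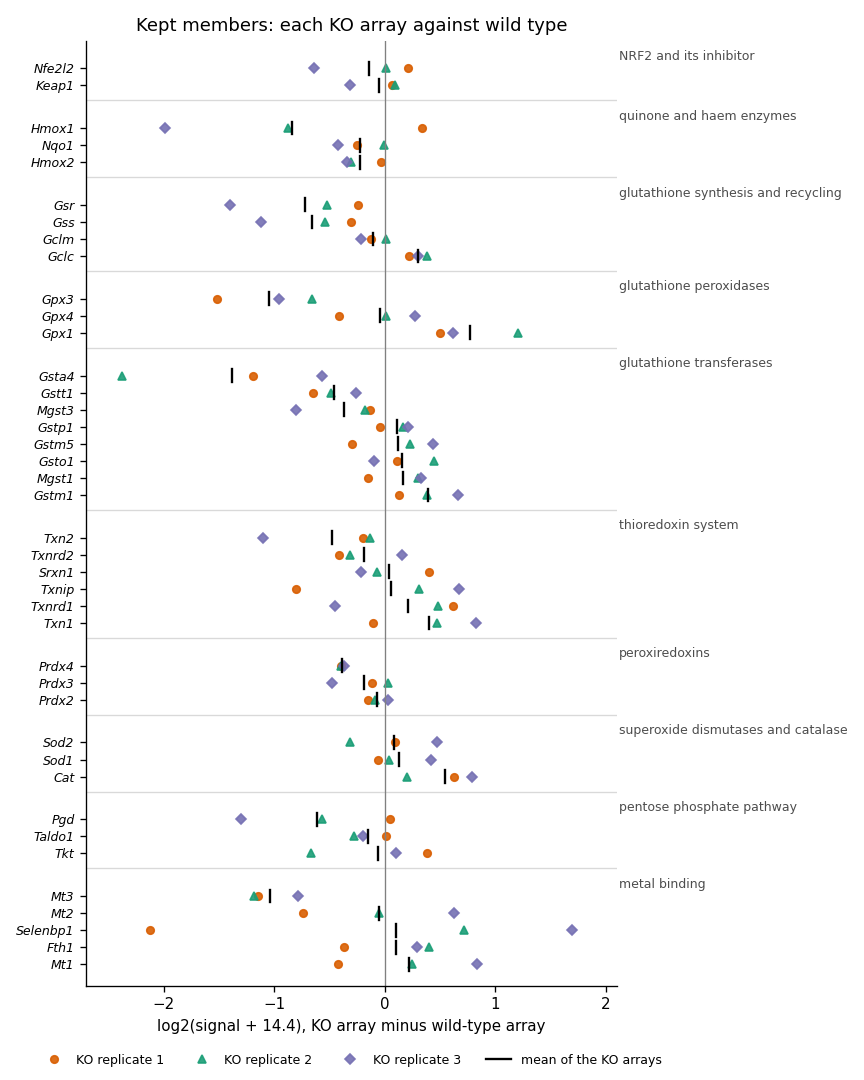
Difference of each KO array from the wild-type array in log2(signal + 14.4) for the 40 kept members, grouped by role. Symbols are single KO arrays and the vertical tick is their mean. Gpx3, Gsta4 and Mt3 lie left of 0 in all 3 arrays, Gpx1 lies right of it in all 3, and Selenbp1 and Hmox1 are spread most widely.

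The NRF2 gene and its inhibitor gave small differences. The signal of Nfe2l2 was 1431 in wild type and 1659, 1446 and 911 in KO replicates 1, 2 and 3, and that of Keap1 was 581 against 610.3, 620.2 and 465. With these probe sets the wild-type array lay within the range of the KO arrays, with KO replicate 3 the lowest. The differences were -0.14 (SE 0.40) and -0.050 (SE 0.33), and both were positive without KO replicate 3, at 0.11 and 0.080. The second Keap1 probe set gave 326 in wild type and 290.3, 252 and 275 in the KO arrays, all below wild type, a difference of -0.25.

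The haem oxygenases and the quinone reductase lay below wild type in the mean. Hmox1, the stress-inducible haem oxygenase that frees iron and biliverdin, had a signal of 553 in wild type and 705, 296 and 129 in KO replicates 1, 2 and 3. KO replicate 1 was thus the highest array and KO replicate 3 the lowest, and the difference was -0.84 (SE 0.77). It was -0.26 without KO replicate 3, and 0.34 in a fit with the pairs of arrays as a block. Nqo1, the quinone reductase, gave 237 in wild type and 197, 237 and 174 in the KO arrays, a difference of -0.22 (SE 0.32) in which KO replicate 2 was level with wild type. Hmox2, the constitutive haem oxygenase, gave 864 in wild type and 682 to 845 in the KO arrays.

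In glutathione synthesis and recycling, the enzymes of the last synthesis step and of recycling were lower in the KO arrays and the first step was not. Gsr, glutathione reductase, which regenerates reduced glutathione with NADPH, had a signal of 1136 in wild type and 961, 786 and 421 in KO replicates 1, 2 and 3. Its difference was -0.72 (SE 0.47), and its other probe set gave -1.08, at 846 in wild type and 636, 486 and 193 in the KO arrays. Gss, glutathione synthetase, gave 382 in wild type and 307, 258 and 168, a difference of -0.66 (SE 0.39). In both genes the groups did not overlap, KO replicate 1 was the KO array nearest to wild type, and KO replicate 3 was the farthest. Without KO replicate 3 the differences were -0.38 for Gsr and -0.42 for Gss. Gclc, the catalytic subunit of the rate-limiting first enzyme, gave 740.3 in wild type and 863, 972 and 918, a difference of 0.30 (SE 0.30) on which its second probe set had 0.31. Gclm, the modifier subunit of the same enzyme, gave 565 in wild type and 486 to 570.2 in the KO arrays, overlapping it.

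The 3 measured glutathione peroxidases, selenoenzymes that reduce peroxides with glutathione, went different ways. Gpx1, the abundant cytosolic form, had a signal of 1752 in wild type and 2482, 4071 and 2703 in KO replicates 1, 2 and 3. All KO arrays were above wild type, by a mean of 0.78 (SE 0.38). Gpx3, the secreted form, gave 261 in wild type and 81.9, 159.6 and 127 in the KO arrays, all below wild type. Its difference was -1.04 (SE 0.40), with an unadjusted p of 0.033 in limma. Gpx4, which repairs lipid peroxides in membranes, gave 3826 in wild type and 2873 to 4642 in the KO arrays, so the groups overlapped.

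Among the 8 glutathione transferases, which join glutathione to reactive compounds, Gsta4 stood farthest from wild type. Gsta4 acts on the lipid peroxidation product 4-hydroxynonenal. Its signal was 567 in wild type and 239.9, 97.8 and 377 in KO replicates 1, 2 and 3, a difference of -1.38 (SE 0.63) that was -0.88 without KO replicate 2. Every KO array was below wild type, but KO replicates 2 and 3 were farther from each other than KO replicate 3 was from wild type. Gstt1, a theta-class transferase, gave 716 in wild type and 452, 509 and 597, a difference of -0.46 (SE 0.32), also without overlap. Mgst3, a microsomal transferase, gave 421 in wild type and 235 to 383. Gstm1, a mu-class transferase found in astrocytes, gave 1343 in wild type and 1473 to 2132 in the KO arrays, measured by a probe set marked for cross-hybridization. Gstm5, Gstp1, Gsto1 and Mgst1 overlapped wild type.

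The thioredoxin system, which reduces disulfides with NADPH, held genes and probe sets on either side of wild type. Txn1, cytosolic thioredoxin, gave 18391 in wild type and 17077, 25532 and 32709 in KO replicates 1, 2 and 3, so KO replicate 1 lay below wild type and the others above. Its difference was 0.40 (SE 0.41) as deposited and -0.11 after quantile normalization, and its second probe set gave -0.34. Txn2, mitochondrial thioredoxin, gave 1634 in wild type and 1423, 1492 and 754, a difference of -0.48 (SE 0.44) that was -0.16 without KO replicate 3. The 2 other probe sets of Txn2 gave -0.31 and -0.73. Txnip, which binds and inhibits thioredoxin, gave 149 in wild type and 79.1, 188 and 245 in the KO arrays, on either side of wild type (0.061, SE 0.55). Its second probe set was above background only in wild type and KO replicate 1, at 112.9 and 35.4. Txnrd1, the cytosolic thioredoxin reductase, gave 1367 in wild type and 2104, 1913 and 995 in the KO arrays, on either side of wild type. Its 2 other probe sets were higher in every KO array, by means of 0.35 and 0.62. Srxn1, which repairs overoxidized peroxiredoxins, overlapped wild type with the probe set that stood for it. A second Srxn1 probe set above background gave 312 in wild type and 238, 178 and 187 in the KO arrays, all below wild type, a difference of -0.61. Txnrd2, the mitochondrial reductase, overlapped wild type.

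Of the peroxiredoxins, thiol peroxidases recycled by thioredoxin, 3 were measured. Prdx2, a cytosolic form, gave 8888 in wild type and 8013, 8348 and 9104 in KO replicates 1, 2 and 3, a difference of -0.068 (SE 0.30) with overlap. Its second probe set gave 512 in wild type and 859, 1424 and 977, a difference of 1.03. Prdx4, the form of the endoplasmic reticulum, gave 3752 in wild type and 2856, 2850 and 2900 in the KO arrays, the closest agreement among KO arrays of any member. One other Prdx4 probe set gave 452 in wild type and 389, 549 and 2287, with KO replicate 3 far above the rest. The mitochondrial form Prdx3 gave 1765 in wild type and 1266 to 1804 in the KO arrays.

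Superoxide dismutases turn superoxide into hydrogen peroxide, which catalase removes. Cat had a signal of 657 in wild type and 1024, 759 and 1149 in KO replicates 1, 2 and 3, all above wild type, by a mean of 0.54 (SE 0.35). Its second probe set gave 856 in wild type and 961, 680 and 530.0, a difference of -0.28, so the probe sets of Cat did not show the same direction. Sod1, the copper and zinc enzyme of the cytosol, which lies on chromosome 16, gave 4169.8 in wild type and 3989, 4286 and 5569 in the KO arrays (0.13, SE 0.34). Sod2, the manganese enzyme of mitochondria, gave 2123 in wild type and 1704 to 2947. Both overlapped wild type with these probe sets. The second Sod2 probe set gave 2511 in wild type and 2324, 1924 and 1783 in the KO arrays, all below wild type, a difference of -0.33.

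The pentose phosphate pathway was represented by 3 genes, and the KO arrays overlapped wild type in each. Pgd, which yields NADPH in the oxidative branch, gave 1085 in wild type and 1121, 725 and 431 in KO replicates 1, 2 and 3, a difference of -0.61 (SE 0.51) that was 0.047 with array pairs as a block. Taldo1, transaldolase, gave 1332 in wild type and 1345, 1094 and 1162 (-0.15, SE 0.31). Tkt, transketolase, gave 4984 in wild type and 3130 to 6521, with KO replicate 1 the highest.

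Mt3 was the member with the lowest unadjusted p. Its signal was 10143 in wild type and 4579, 4458 and 5872 in KO replicates 1, 2 and 3, with all KO arrays close together and well below wild type. The difference was -1.04 (SE 0.33), with an unadjusted p of 0.015 in limma, and it lay between -1.16 and -0.97 when any KO array was left out. With Gpx3, Mt3 was 1 of 2 members with an unadjusted p under 0.05 in limma by the probe sets that stood for the genes. Both were lower, where 0.941% of all kept genes were lower at that level. With every probe set tested on its own in limma, the second Prdx2 probe set was higher with an unadjusted p of 0.034. In that fit Mt3 had 0.019 and Gpx3 had 0.040, both lower. Mt1 gave 15132 in wild type and 11310.2, 17925 and 27031 in the KO arrays, and Mt2 gave 10497 against 6300.3, 10107 and 16244. Both were lowest in KO replicate 1 and highest in KO replicate 3, with wild type between them. The differences were 0.22 (SE 0.48) for Mt1, which turned to -0.20 after quantile normalization, and -0.054 (SE 0.51) for Mt2. The Mt1 probe set is marked as matching several transcripts, so Mt1 and Mt2 may not be separate measurements. A second Mt1 probe set gave 154 in wild type and 111, 68.2 and 117 in the KO arrays, a difference of -0.60.

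Selenbp1, which encodes a selenium-binding protein with methanethiol oxidase activity, had the widest spread of any member. It gave 223 in wild type and 40.1, 376 and 756 in KO replicates 1, 2 and 3, and its second probe set gave 231 against 55.0, 313 and 650.1. Both probe sets thus showed the same order of arrays, with KO replicate 1 lowest and KO replicate 3 highest. The mean difference was 0.10 (SE 1.24). The value for KO replicate 1 was above background there, and the difference was 1.21 without KO replicate 1 and -0.70 without KO replicate 3. Fth1, the ferritin heavy chain that stores iron, gave 11489 in wild type and 8875 to 15185 in the KO arrays, on either side of wild type.

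**Figure D2:**
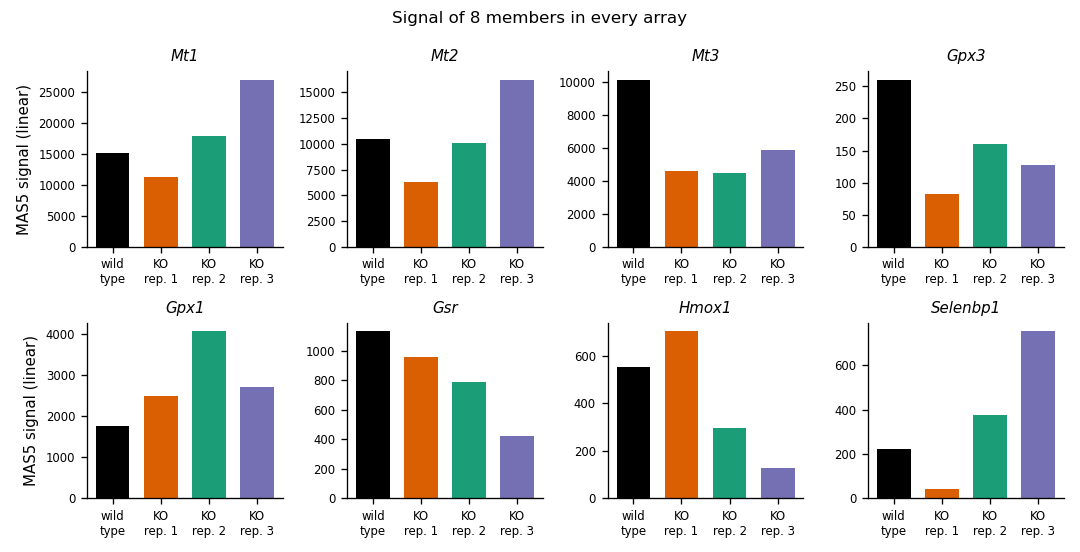
MAS5 signal on a linear scale starting at 0 in each of the 4 arrays for 8 members, each with its own axis. Bars are single arrays. Wild type is the highest array for Mt3, Gpx3 and Gsr and the lowest for Gpx1, whereas Mt1, Mt2 and Selenbp1 are lowest in KO replicate 1 and highest in KO replicate 3, and Hmox1 is highest in KO replicate 1.

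The split of the arrays by Xist and 18S RNA was about as frequent among the members as among all genes. KO replicates 2 and 3 were both above wild type and KO replicate 1 for 13 of 40 members (32.5%), against 24.8% of all kept genes, and both below for 8 (20%), against 25.8%, so nothing particular to the members is read from it. The 13 were Gpx1, Gpx4, Gclc, Gstm1, Gstm5, Gstp1, Mgst1, Fth1, Mt1, Selenbp1, Sod1, Txn1 and Txnip. The 8 were Gsr, Gss, Mgst3, Pgd, Taldo1, Hmox1, Hmox2 and Srxn1. Brightness moved with this split. Of the brightest 5% of kept genes, 372 in number, 65.6% were above in KO replicates 2 and 3 and 6.99% were below. Of the 9 members among them, Fth1, Gstm5, Mt1, Sod1 and Txn1 were above, while Mt2, Mt3, Prdx2 and Tkt were not. The share of members was thus no larger than that of other bright genes, and the part of brightness in the values was not tested.

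Within the first pair, genotype could be compared only between 2 single arrays, so these values have no replicate check. KO replicate 1 was below wild type for 26 of 40 members, against 46.5% of all kept genes. It was at least 2-fold lower for Gpx3, Gsta4, Mt3 and Selenbp1, against 1.09% of all kept genes, and at least 2-fold higher for 0 members, against 0.78%. Gpx3, Gsta4 and Mt3 were also below wild type in KO replicates 2 and 3, whereas Selenbp1 was above it there.

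Probe sets of 1 gene did not always give the same direction. Of the 76 probe sets, 68 were above background in all 4 arrays and 2 in none. For 20 members at least 2 probe sets were above background in all arrays, and in 10 of these all probe sets had the same sign. Prdx4 spread from -0.39 to 0.79 and Prdx2 from -0.068 to 1.03. The signs also differed for Cat, Mt1, Pgd, Txn1, Srxn1, Sod2, Fth1 and Gsto1. Gsr, Gclc, Txn2 and Txnrd1 were among those with a common sign, and Mt3, Gpx1, Gpx3, Gss, Gsta4 and Hmox1 had only 1 probe set. The probe sets that stood for Fth1, Gstm1, Mt1, Srxn1 and Tkt carry a suffix for possible cross-hybridization.

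**Figure D3:**
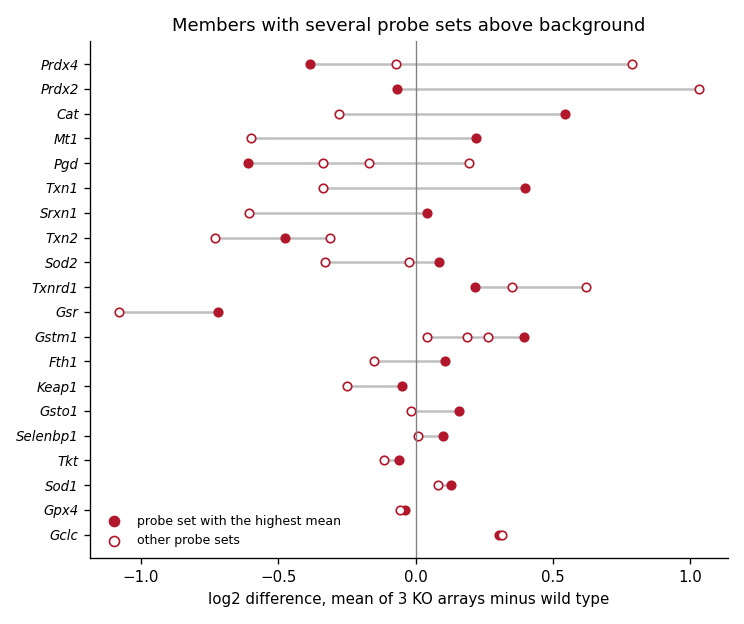
Mean log2 difference of the 3 KO arrays from wild type for each probe set above background in all arrays, in the 20 members with several. Filled circles are the probe sets used for the gene, open circles the others, and the bar joins probe sets of 1 gene. Prdx4 and Prdx2 spread over more than 1 log2 unit, while Gclc and Gpx4 have nearly equal values.

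Other genes of these pathways were taken from 6 further lists, which held 110 kept genes that were not members. None of these genes passed the test (limma adjusted p under 0.05), 3 had an unadjusted p under 0.05 in limma, and the median difference was -0.022. In every KO array 24 were higher and 29 lower, where 23.2% and 20.6% of all kept genes were. These shares also stand beside the counts of each list below. In the list of other NRF2 pathway genes, 6 of 20 were higher in all KO arrays and 2 lower. Bach1, a repressor that competes with NRF2, gave 513 in wild type and 719, 675 and 746 in KO replicates 1, 2 and 3 (0.46, SE 0.30), and its second probe set gave 0.53. Cbr3, a carbonyl reductase, gave 568 in wild type and 1492, 1198 and 569.8, so KO replicate 3 was level with wild type. In the list of other glutathione genes, 2 of 16 were higher in all KO arrays and 6 lower. Chac1, which breaks glutathione down, gave 111 in wild type and 261, 183 and 158 (0.74, SE 0.37). Glrx, glutaredoxin, gave 2267 in wild type and 1529, 1707 and 1768 (-0.44, SE 0.31), and -0.47 with its second probe set.

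In the list of other selenoprotein genes, 6 of 13 kept genes were higher in all KO arrays and 3 lower, against 23.2% and 20.6% of all kept genes, with a median of 0.20. KO replicates 2 and 3 were both above the other arrays for 6 of the 13 and both below for 0, against 24.8% and 25.8% of all kept genes, and the part of the array pairs was not tested. Selenow, a small selenoprotein with a redox motif, gave 3907 in wild type and 6141, 10564 and 14467 in KO replicates 1, 2 and 3, a difference of 1.32 (SE 0.48), with the suffix that marks possible cross-hybridization. Its second probe set gave 3347 in wild type and 4311, 5563 and 3610.3, a difference of 0.40 in the same direction. Among iron genes, 8 of 16 were lower in all KO arrays, against 20.6% of all kept genes, and 2 higher. The 8 were Cp, Fech, Hfe, Iscu, Ncoa4, Nfs1, Pcbp1 and Slc11a2, and Iscu and Nfs1 serve iron-sulfur cluster assembly. Nfs1 (-0.0067), Pcbp1 (-0.0087) and Fech (-0.039) were nearly level with wild type in KO replicate 1. KO replicates 2 and 3 were both below the other arrays for 7 of the 16 iron genes, against 25.8% of all kept genes, Cp, Iscu, Ncoa4, Nfs1 and Pcbp1 among them. Cp, the ferroxidase ceruloplasmin made by astrocytes, gave 1029 in wild type and 723, 528 and 369 (-0.96, SE 0.41), and 1 of its 7 probe sets pointed the other way, at 0.095. Iscu gave 2551 in wild type and 2171, 1581.5 and 1649.8 (-0.51, SE 0.33). Hamp, the iron hormone hepcidin, was higher (1.47, SE 0.32) with 1 probe set and not with its other one (-0.26). The zinc and copper list was even, with 5 of 21 higher and 4 lower in all KO arrays, against 23.2% and 20.6% of all kept genes. In the list of other thioredoxin and repair genes, 3 of 24 were higher and 6 lower, against the same shares. It was led by Sesn3, a sestrin that promotes peroxiredoxin repair, at 1194 in wild type and 1752, 2069 and 2367 (0.77, SE 0.33).

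**Figure D4:**
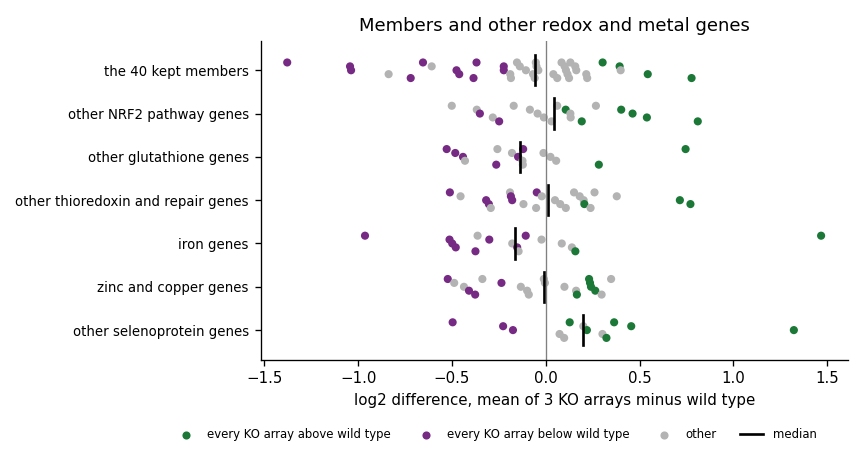
Mean log2 difference of the 3 KO arrays from wild type for the 40 kept members and for 6 lists of other redox and metal genes. Points are genes, coloured by whether all 3 KO arrays lie above or below wild type, and the black line is the median. Iron genes lie mostly left of 0, with a median of -0.17, and selenoprotein genes mostly right of it, with a median of 0.20.

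The cells expressed neural stem cell markers, 9 of 10 above background in all arrays. Of these 10 markers, 3 (Cd9, Hes5 and Msi1) were lower in all KO arrays and 1 (Vim) was higher. Among all kept genes 20.6% were lower and 23.2% higher. Since several members are active in astrocytes, that marker list is given beside them. In the astrocyte list, 9 of 10 markers were above background in all arrays. The summed signal was 10782 in wild type and 6934 to 9223 in the KO arrays. Of 9 kept astrocyte genes, 3 (Aldh1l1, Fgfr3 and Gja1) were lower in all KO arrays, against 20.6% of all kept genes. The other kept ones, Aldoc, Aqp4, Glul, S100b, Slc1a2 and Sox9, overlapped wild type. The neuron markers also had a lower sum in every KO array, 2666 in wild type and 1446 to 2168, with 4 of 10 above background in all arrays. Map2 alone gave 1766 of this sum in wild type and 1447, 784 and 593 in KO replicates 1, 2 and 3. Dcx and Gad1, the other kept neuron markers, overlapped wild type. Of the genes described above, Mt3, Gpx3, Gsta4 and Cp were lower in every KO array, while Gstm1 was higher. Mt1 (0.22) and Mt2 (-0.054) overlapped wild type, and the part of any cell type in these values was not tested. In bulk samples fewer cells of a type and less RNA per cell cannot be told apart. Few markers of blood, vessel and immune cells were above background in all arrays, 3 of 10 for microglia, 1 of 6 erythroid and 0 of 10 endothelial. In single arrays 4 to 7 microglia, 1 to 3 erythroid and 1 to 6 endothelial markers were above it. The 10 microglia markers summed to 435 in wild type and 441 to 633 in the KO arrays, with Ptprc and C1qa not above background in any array. The 6 measured erythroid markers summed to 228 in wild type and 188 to 393, with Alas2 and Hbb-y not above background, and the 10 endothelial markers summed to 422 and 396 to 456.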

How the data were processed

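Expression was measured on Affymetrix arrays from 6 µg total RNA per sample, per the labels' protocols. The authors deposited linear signal intensities made with MAS5, per the submitters' processing notes, whose version is not given in the sources read for this. No detection calls were used. Probe sets were named from the platform annotation, 20380 noncontrol ones with 1 gene, with symbols updated through RefSeq (GRCm38.p6).

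Intensities became log2(signal + 14.4), 0.1 times the median of all values. The probe set with the highest mean stood for a gene, and the lowest 40% of genes were left out. The genotypes were tested in limma 3.58.1 under R 4.3.3 (two-sided, Benjamini-Hochberg over 7436 genes), with the spread estimated in the KO arrays (2 residual and 5.23 prior degrees of freedom) and wild type was assumed to vary like them. The fit was tested on simulated data. The number of arrays limits the precision.

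The members and lists were chosen with earlier results of these data known. Given in full were Nfe2l2, Keap1, the metallothioneins, members outside the KO range by 0.4 or more, the 8 with the largest KO spread, and the first of each role. Of each further list, up to 3 genes by moderated t were taken, not all of which are named. Genes named beyond this rule were chosen after their values were seen. Alternatives covered scaling, pseudocount, filter, probe set, eBayes, each KO array left out and the pair as a block. A fit of every probe set was added after seeing the data.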

Additional observations from a re-analysis of the deposited data

How the results depend on the processing

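No gene was called in limma under any alternative except without KO replicate 1, where 2 genes, the Y-linked Eif2s3y and Tmem87a, were called, neither a member; over the arrays left out the count ran from 0 to 2, and with every probe set tested on its own it was 0, with 307 of 12228 probe sets at an unadjusted p under 0.05. Members above wild type in every KO array numbered 7 with the mean of all probe sets, and 6 to 14 with an array left out. Members below numbered 7 with the lowest 60% of genes left out, where fewer members were kept, and 13 to 15 with an array left out. Several differences changed sign. With the array pairs as a block, which leaves the single-array difference of KO replicate 1 from wild type, they were 0.34 for Hmox1, 0.069 for Keap1, -0.42 for Mt1, 0.21 for Nfe2l2, 0.047 for Pgd, -2.12 for Selenbp1, -0.064 for Sod1, 0.014 for Taldo1, -0.11 for Txn1, -0.80 for Txnip and 0.054 for the zinc transporter gene Slc39a7. Fth1, Gstm5, Gstp1, Mgst1 and Tkt turned as well, to -0.37, -0.29, -0.038, -0.15 and 0.39. After quantile normalization they were -0.20 for Mt1 and -0.11 for Txn1. With the mean of all probe sets they were -0.19 for Mt1, 0.48 for Prdx2 and -0.64 for Txnip, and with a pseudocount of 1 Selenbp1 was -0.043. With an array left out, ranges that crossed 0 among the members given in full were -0.12 to 0.080 for Keap1, -0.088 to 0.54 for Mt1, -0.39 to 0.29 for Mt2, -0.31 to 0.11 for Nfe2l2, -0.70 to 1.21 for Selenbp1, -0.012 to 0.23 for Sod1 and -0.24 to 0.49 for Txnip. Differences of the other members, such as Tkt, Sod2, Gpx4 and Fth1, were not followed there and may cross 0 as well. The causes were not tested. Gpx1, Gpx3, Gsr, Gss, Gsta4, Gstt1, Mt3 and Txn2 kept their sign under every alternative run, and Cat did except for its second probe set taken on its own. For all of these genes every KO array lay on the same side of wild type. Leaving out an array or fitting the block therefore could not turn their sign, and only the other alternatives could. No paired analysis was possible because the labels give the 1 wild-type array no number shared with a KO array; the block above rests on pairs seen in the data.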
